A study of Mus musculus with 9 samples.

Results

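The basement membrane genes Nid1, Nid2, Lama4, Lamb1, Lamc1, Col4a1, Col4a2, Col18a1, Hspg2 and Agrn, 10 of the 13795 genes measured by RNA sequencing in mouse heart, were taken by symbol. All 10 were in the table and had a mean of at least 10 normalized counts, the level asked for in the test. The comparison was of 5 hearts of mice given oxaliplatin at 10 mg/kg with 4 hearts of vehicle controls, all C57BL/6 mice, with hearts taken after 8 weeks of treatment and RNA of integrity above 8. Oxaliplatin is a platinum drug used against cancer, and the comparison asked how it changed gene expression in the heart. Samples are called oxaliplatin 1 to 5 and vehicle 1 to 4 after their titles. The labels give separate samples, called hearts here, without stating that each came from a different mouse or how mice were dosed or paired, so each p-value rests on how far these hearts differ from each other, part of which may be technical.

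A basement membrane is a thin sheet of extracellular matrix. In the heart it wraps each muscle cell and underlies the endothelium of every vessel, where pericytes and smooth muscle share it. Laminins, trimers of an alpha, a beta and a gamma chain, assemble on cell surfaces through integrins and dystroglycan. Collagen IV forms a second network, whose commonest trimer joins alpha1 and alpha2 chains. Nidogens and the heparan sulfate proteoglycans perlecan and agrin link the networks and hold growth factors.

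Col4a1 and Col4a2, the genes of the collagen IV alpha1 and alpha2 chains, lie head to head on chromosome 8. In GENCODE M21 on GRCm38, Col4a1 runs on the minus strand at chr8:11198423-11312826 and Col4a2 on the plus strand at chr8:11312805-11449287. Their first exons overlap by 22 bases, chr8:11312805-11312826, which are shown because the genes' transcripts start at the 2 ends of this stretch. Of the 10 genes, 7 had an entry in RefSeq's promoter windows for GRCm38.p6, which run from 250 bases before a start site to 50 after it, with 9 windows in all. For Nid1, Lamb1 and Hspg2, the part of the window before any annotated exon is shown, since these loci pair a gene that rose with overlapping groups, one that rose without overlap and one that did not pass. They lie at chr13:13437352-13437550, chr12:31265043-31265233 and chr4:137468553-137468768. All 4 sequences are the plus strand, and capitals mark the GC box letters GGGCGG or their reverse complement.
Col4a1 and Col4a2 first-exon overlap: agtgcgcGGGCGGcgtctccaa
Nid1: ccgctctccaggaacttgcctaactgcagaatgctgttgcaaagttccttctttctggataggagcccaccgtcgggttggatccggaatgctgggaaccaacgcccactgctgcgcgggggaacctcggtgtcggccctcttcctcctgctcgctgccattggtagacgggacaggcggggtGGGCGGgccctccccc
Lamb1: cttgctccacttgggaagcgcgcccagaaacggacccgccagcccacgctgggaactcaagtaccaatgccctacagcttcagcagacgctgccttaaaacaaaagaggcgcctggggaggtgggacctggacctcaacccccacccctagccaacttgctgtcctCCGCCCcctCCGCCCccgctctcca
Hspg2: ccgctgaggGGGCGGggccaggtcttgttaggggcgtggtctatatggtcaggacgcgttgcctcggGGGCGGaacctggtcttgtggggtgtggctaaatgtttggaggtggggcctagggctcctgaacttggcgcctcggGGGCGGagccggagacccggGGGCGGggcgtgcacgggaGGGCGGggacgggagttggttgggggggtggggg
The Hspg2 stretch holds 5 GC boxes, the Lamb1 stretch 2, the Nid1 stretch 1 and the shared stretch of the collagen genes 1. Searched on both strands, the GC box was in 8 of the 9 windows, covering all 7 genes, and in 35.7% of all 32851 RefSeq windows of that length. A CCAAT box, letters CCAAT, was in 5 of the 9 windows, against 37.4% of all windows. Neither the AP-1 letters TGANTCA nor the TATA box letters TATAAA were in any of the 9 windows, while 7.8% and 13.6% of all windows held them. No match of one motif overlapped a match of another. A match of letters is a description of the window, not of a bound factor.

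Sums of normalized counts per sample ran between 29.4 M and 31.7 M in 4 oxaliplatin hearts and 36.1 M in oxaliplatin 1, and between 30.1 M and 36.9 M in vehicle hearts. The steps between low values gave an estimated 30.2 M to 36.2 M reads per oxaliplatin heart and 28.5 M to 34.3 M per vehicle heart. All 11 cardiomyocyte markers were present in every heart, with a summed level between 1106078 and 1552128 normalized counts in oxaliplatin hearts and between 1528674 and 1810543 in vehicle hearts. Of the members, Col18a1 rested on the fewest reads, an estimated 88 in vehicle 3, where counting error alone is 10.7%. For the other 9 members the lowest sample held between 234 and 1761 estimated reads. Counting errors and such estimates cover sampling of reads only.

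Of the 10 genes, 7 rose in oxaliplatin hearts, namely Col18a1, Nid2, Col4a2, Col4a1, Nid1, Lamb1 and Lama4. None fell, with 0 lower at an unadjusted p under 0.05 as well, and Lamc1, Hspg2 and Agrn did not pass (limma with Benjamini-Hochberg adjustment over 13788 genes, adjusted p under 0.05). Among all genes tested, 9.23% were called higher, 5.03% lower and 14.3% in either direction. The median log2 fold change was 0.73 over the 10 genes and -0.02 over all genes tested. Among the 7385 genes with a mean at least that of Col18a1, the lowest member, 9.6% were higher and the median was -0.04. For 4 of the 10 genes every oxaliplatin heart lay above every vehicle heart, which held for 8.99% of all genes tested, and for 0 of the 10 every oxaliplatin heart lay below, against 5.93%. The count of members that rose was 3 without vehicle 2 or without vehicle 3, 5 without oxaliplatin 3, 4 or 5, 6 without vehicle 1 and 7 without oxaliplatin 1, oxaliplatin 2 or vehicle 4. In a bulk sample, more cells of a type and more RNA per cell cannot be told apart.

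**Figure D1:**
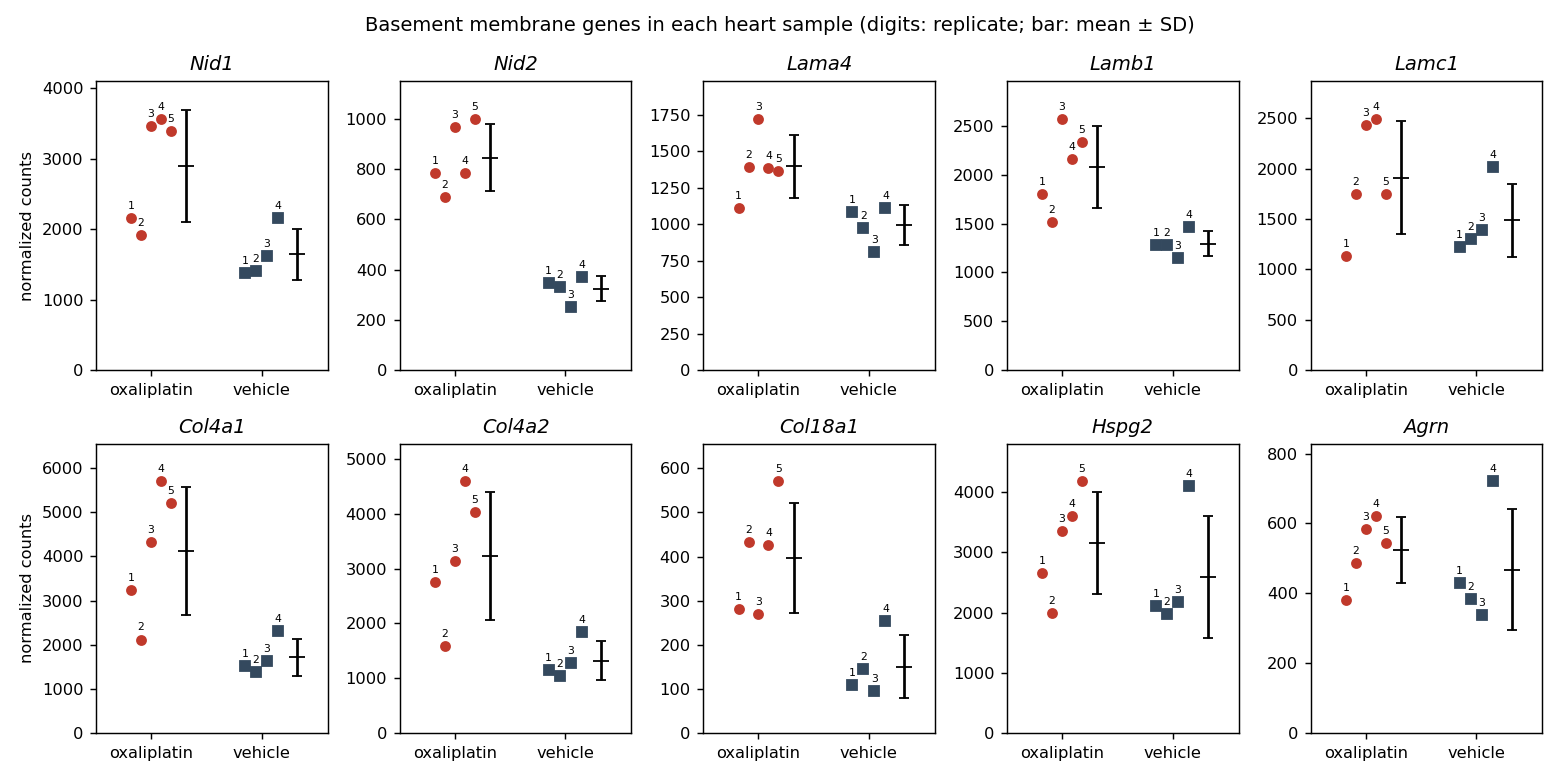
Normalized counts of the 10 basement membrane genes on a linear axis, 1 point per heart. Oxaliplatin hearts are left of vehicle hearts in each panel, with a bar at the group mean ± SD. Nid2, Lama4, Lamb1 and Col18a1 show groups that do not overlap, and vehicle 4 is the highest vehicle heart in every panel.

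Nidogens, rod-shaped glycoproteins that bind laminin and collagen IV, both rose. Nid2 (nidogen-2, chr14:19751265-19811787, plus strand) had 783, 689, 968, 782 and 999.3 normalized counts in oxaliplatin 1 to 5, against 346, 331, 251 and 371 in vehicle 1 to 4. The lowest oxaliplatin heart was well above the highest vehicle heart. Nid2 averaged 844 ± 133 normalized counts in oxaliplatin hearts (SD, n = 5) and 325 ± 51.6 in vehicle hearts (SD, n = 4), a log2 fold change of 1.38 with a standard error of 0.15 (95% interval 1.05 to 1.70, limma adjusted p = 0.000461). Its fold change stayed between 1.26 and 1.45 when any 1 sample was left out, and it passed each time. Exons of Nid2 share 437 of their 5174 bases (8.45%) with Rtraf, a gene on the other strand, and the strand setting of the counting is not given in the sources used here. Rtraf itself had a log2 fold change of 0.01 (limma adjusted p = 0.971).

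Nid1 (nidogen-1, chr13:13437551-13512269, plus strand) is the commoner nidogen of most tissues. It had 2159, 1919, 3465, 3567 and 3394 normalized counts in oxaliplatin 1 to 5, against 1380.4, 1402, 1626 and 2160.2 in vehicle 1 to 4. Oxaliplatin 3, 4 and 5 formed a high group, while oxaliplatin 1 and 2 lay below vehicle 4, so the groups overlapped. The means were 2901 ± 794 normalized counts in oxaliplatin hearts (SD, n = 5) and 1642 ± 363 in vehicle hearts (SD, n = 4), a log2 fold change of 0.80 with a standard error of 0.21 (95% interval 0.34 to 1.25, limma adjusted p = 0.0255). The call was lost without vehicle 1 (limma adjusted p = 0.0681), vehicle 2 (0.0806), vehicle 3 (0.0689), oxaliplatin 3 (0.0589), oxaliplatin 4 (0.0595) or oxaliplatin 5 (0.0572), with fold changes from 0.71 to 0.80.

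The collagen IV chains rose by nearly the same amount. Col4a1 had 3249, 2117, 4326, 5699 and 5209 normalized counts in oxaliplatin 1 to 5, against 1527, 1378, 1621 and 2317 in vehicle 1 to 4. Col4a2 had 2757, 1578, 3146, 4589.6 and 4033 in oxaliplatin 1 to 5, against 1143, 1029.9, 1274 and 1833 in vehicle 1 to 4. For both genes oxaliplatin 2 lay below vehicle 4, and the other 4 oxaliplatin hearts lay above every vehicle heart. Col4a1 averaged 4120.1 ± 1457 normalized counts in oxaliplatin hearts (SD, n = 5) and 1711 ± 416 in vehicle hearts (SD, n = 4), a log2 fold change of 1.21 with a standard error of 0.28 (95% interval 0.60 to 1.82, limma adjusted p = 0.0163). Col4a2 averaged 3221 ± 1168 in oxaliplatin hearts (SD, n = 5) and 1319.9 ± 357 in vehicle hearts (SD, n = 4), a log2 fold change of 1.23 with a standard error of 0.29 (95% interval 0.58 to 1.88, limma adjusted p = 0.0196). Both calls were lost without vehicle 2 (adjusted p = 0.0533 for Col4a1 and 0.0624 for Col4a2) or vehicle 3 (0.0511 and 0.0560), where the fold changes were between 1.12 and 1.23.

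Within each heart the ratio of Col4a1 to Col4a2 counts hardly moved, at 1.18 to 1.38 in oxaliplatin hearts and 1.26 to 1.34 in vehicle hearts. The difference in mean log2 ratio was -0.02 with a standard error of 0.05 (exact permutation test, two-sided, p = 0.762, adjusted p = 0.762 over the 7 ratios tested). A shared stretch of 22 bases in their first exons is 0.29% of the Col4a1 exon bases and 0.33% of those of Col4a2.

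Col18a1 (chr10:77052178-77166548, minus strand) encodes collagen XVIII, a heparan sulfate proteoglycan whose released C-terminal fragment is endostatin, an inhibitor of vessel growth. It had 281, 432, 269.8, 427 and 570.3 normalized counts in oxaliplatin 1 to 5, against 109, 144, 94.7 and 253 in vehicle 1 to 4. Every oxaliplatin heart lay above every vehicle heart, although oxaliplatin 3 and vehicle 4 were close. It averaged 396 ± 124 normalized counts in oxaliplatin hearts (SD, n = 5) and 150.2 ± 71.7 in vehicle hearts (SD, n = 4), a log2 fold change of 1.44 with a standard error of 0.30 (95% interval 0.79 to 2.10, limma adjusted p = 0.00882). The call held without any 1 sample, with adjusted p up to 0.0310.

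Of the laminin chains, beta1 and alpha4 rose and gamma1 did not pass. Lamb1 (laminin beta1, chr12:31265234-31329644, plus strand) had 1804, 1517, 2571, 2164 and 2336 normalized counts in oxaliplatin 1 to 5, against 1285, 1282, 1144 and 1460.3 in vehicle 1 to 4. The groups did not overlap, with oxaliplatin 2 next to vehicle 4. Lamb1 averaged 2079 ± 420.1 in oxaliplatin hearts (SD, n = 5) and 1293 ± 129 in vehicle hearts (SD, n = 4), a log2 fold change of 0.66 with a standard error of 0.15 (95% interval 0.34 to 0.99, limma adjusted p = 0.0109). It passed without any 1 sample, with fold changes from 0.58 to 0.77 and adjusted p up to 0.0443.

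Lama4 (laminin alpha4, chr10:38965515-39110188, plus strand) is the alpha chain made by endothelium of all vessels and, with beta1 and gamma1, forms laminin-411. It had 1115, 1392, 1724, 1387 and 1366 normalized counts in oxaliplatin 1 to 5, against 1082, 974, 812 and 1114 in vehicle 1 to 4. Oxaliplatin 1 and vehicle 4 were nearly equal, so the groups were apart by less than 1 count. The means were 1397 ± 217 in oxaliplatin hearts (SD, n = 5) and 996 ± 136 in vehicle hearts (SD, n = 4), a log2 fold change of 0.49 with a standard error of 0.14 (95% interval 0.19 to 0.78, limma adjusted p = 0.0320). The call was lost without vehicle 2 (adjusted p = 0.0810), vehicle 3 (0.111), oxaliplatin 3 (0.0752), oxaliplatin 4 (0.0621) or oxaliplatin 5 (0.0585). It was also lost when samples were scaled to their sum outside mitochondrially encoded genes (adjusted p = 0.0575).

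Lamc1 (laminin gamma1, chr1:153218922-153332786, minus strand) is the gamma chain shared by most laminins. It had 1132, 1748, 2428, 2494 and 1747 normalized counts in oxaliplatin 1 to 5, against 1225, 1304, 1395 and 2018 in vehicle 1 to 4. Oxaliplatin 3 and 4 lay above all vehicle hearts, while oxaliplatin 1 was the lowest heart of all. Its log2 fold change was 0.34 with a standard error of 0.23 (95% interval -0.16 to 0.83, limma adjusted p = 0.363), an interval that spans 0 and the fold change of Lamb1 alike.

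Perlecan and agrin, the large secreted heparan sulfate proteoglycans, did not pass. Hspg2 (perlecan, chr4:137468769-137570630, plus strand) had 2659.9, 1999, 3360.2, 3613 and 4180.3 normalized counts in oxaliplatin 1 to 5, against 2105, 1973, 2174 and 4105 in vehicle 1 to 4. Vehicle 4 lay above 4 of the 5 oxaliplatin hearts and far from the other 3 vehicle hearts. The log2 fold change was 0.31 with a standard error of 0.25 (95% interval -0.24 to 0.87, limma adjusted p = 0.451), and without vehicle 4 it was 0.56 (limma adjusted p = 0.106).

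Agrn (agrin, chr4:156165290-156197488, minus strand), which organises the neuromuscular junction and binds dystroglycan, had 381, 485, 585, 620.1 and 544 normalized counts in oxaliplatin 1 to 5, against 428, 383, 337 and 720.1 in vehicle 1 to 4. Vehicle 4 was the highest of all 9 hearts. The log2 fold change was 0.21 with a standard error of 0.21 (95% interval -0.25 to 0.66, limma adjusted p = 0.555), and without vehicle 4 it was 0.44 (limma adjusted p = 0.108). These intervals cover no change and a rise of the size seen for Lama4.

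**Figure D2:**
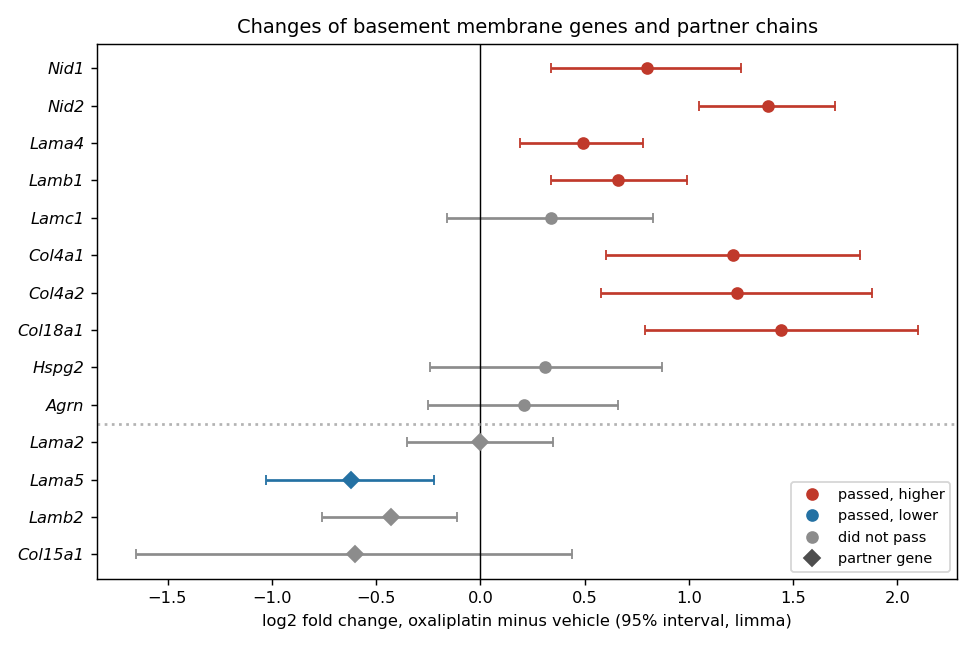
Log2 fold changes, oxaliplatin minus vehicle, of the 10 basement membrane genes with 95% intervals from limma. Below a dotted line are the partner genes Lama2, Lama5, Lamb2 and Col15a1. The fold changes of the 10 genes run from 0.21 for Agrn to 1.44 for Col18a1. The intervals of Lamc1, Hspg2 and Agrn cross 0, as do those of the partners Lama2 and Col15a1.

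Per kilobase of transcript, the scale on which different genes can be compared, the order of the members differed between the groups. In oxaliplatin hearts Col4a1 was highest with 623 ± 220.3 normalized counts per kilobase (SD, n = 5), followed by Col4a2 (499 ± 181), Nid1 (476 ± 130.3) and Lamb1 (374 ± 75.6). In vehicle hearts Nid1 was highest with 269.6 ± 59.6 (SD, n = 4), followed by Col4a1 (259 ± 63.0), Lamb1 (233 ± 23.3) and Col4a2 (205 ± 55.3). These 4 genes led in both groups, and no neighbours among them differed by more than the larger of their SDs. Lamc1 (250.5 ± 73.9 in oxaliplatin hearts and 195 ± 47.5 in vehicle hearts), Lama4 (231 ± 35.8 and 165 ± 22.5) and Hspg2 (223 ± 59.9 and 183 ± 71.5) came next, and did not differ beyond their SDs. The lowest 3 in both groups were Nid2 (173 ± 27.4 in oxaliplatin hearts and 66.6 ± 10.6 in vehicle hearts), Col18a1 (82.7 ± 26.0 and 31.3 ± 14.97) and Agrn (75.9 ± 13.6 and 67.8 ± 25.1). Nid2 and Agrn stood at almost the same level per kilobase in vehicle hearts, whereas in oxaliplatin hearts Nid2 stood above Agrn by more than either SD. The genes with the largest fold changes, Col18a1 and Nid2, were therefore among the lowest per kilobase in vehicle hearts.

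Ratios within a heart compare related chains without regard to library scaling, and 7 were tested, each with an exact two-sided permutation test over 126 splits whose smallest p is 0.0159. Lamb1 competes with Lamb2, laminin beta2, for a place in the trimer. The Lamb1 to Lamb2 count ratio was 0.644 to 1.20 in oxaliplatin hearts and 0.350 to 0.488 in vehicle hearts, without overlap. The mean log2 ratio was -0.17 ± 0.33 in oxaliplatin hearts (SD, n = 5) and -1.26 ± 0.20 in vehicle hearts (SD, n = 4), a difference of 1.10 with a standard error of 0.18 (exact p = 0.0159, adjusted p = 0.0370 over the 7 ratios). Lamb2 itself had 1828, 2359, 2145, 2612 and 2610.2 normalized counts in oxaliplatin 1 to 5, against 3009, 2626, 2789 and 4169 in vehicle 1 to 4. The groups did not overlap, but the log2 fold change of -0.43 did not pass (standard error 0.15, limma adjusted p = 0.0739). It passed with the atrial (-0.47, limma adjusted p = 0.0366) or fibroblast (-0.63, 0.0386) marker score as a covariate.

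Lama4 was set against Lama5 and Lama2. Lama5, laminin alpha5, is an alpha chain that endothelium adds to laminin alpha4 in mature vessels, and Lama2, laminin alpha2, is the chain around muscle cells. The Lama4 to Lama5 count ratio was 2.29 to 3.20 in oxaliplatin hearts and 0.889 to 1.52 in vehicle hearts, again without overlap. The difference in mean log2 ratio was 1.11 with a standard error of 0.20, at 1.45 ± 0.19 in oxaliplatin hearts (SD, n = 5) and 0.34 ± 0.36 in vehicle hearts (SD, n = 4) (exact p = 0.0159, adjusted p = 0.0370 over the 7 ratios). Lama5 had 486, 435, 597, 549 and 479.7 normalized counts in oxaliplatin 1 to 5, against 714, 643, 644 and 1254 in vehicle 1 to 4. Every oxaliplatin heart was below every vehicle heart, and vehicle 4 was far above the rest. Lama5 fell by 0.62 on the log2 scale (standard error 0.19, limma adjusted p = 0.0415), a call that was kept without oxaliplatin 3 or vehicle 2 but lost without any other single sample, with adjusted p from 0.0512 to 0.0812. Per kilobase, Lama5 had 44.7 normalized counts in oxaliplatin hearts and 71.5 in vehicle hearts, below Lama4 in both.

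Lama2 had 914, 1173, 1304, 1578 and 1196 normalized counts in oxaliplatin 1 to 5, against 1123, 1063, 1140.1 and 1606 in vehicle 1 to 4, with means of 1233 in both groups. The Lama4 to Lama2 ratio differed by 0.49 on the log2 scale (standard error 0.16, exact p = 0.0476, adjusted p = 0.0667 over the 7 ratios) and its groups overlapped. The Nid2 to Nid1 ratio was likewise higher by 0.58 with a standard error of 0.22 and did not pass (exact p = 0.0476, adjusted p = 0.0667). Without oxaliplatin 4 these differences were 0.58 and 0.69, and both passed (exact permutation test, adjusted p = 0.0400).

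Col15a1 encodes collagen XV, the nearest relative of collagen XVIII. The Col18a1 to Col15a1 count ratio was 0.672 to 2.99 in oxaliplatin hearts and 0.267 to 0.401 in vehicle hearts, without overlap. The mean log2 ratio was 0.45 ± 0.92 in oxaliplatin hearts (SD, n = 5) and -1.60 ± 0.28 in vehicle hearts (SD, n = 4), a difference of 2.05 with a standard error of 0.44 (exact p = 0.0159, adjusted p = 0.0370 over the 7 ratios). Col15a1 alone averaged 320.2 ± 151 normalized counts in oxaliplatin hearts (SD, n = 5) and 443 ± 159.9 in vehicle hearts (SD, n = 4) and did not pass (log2 fold change -0.60, limma adjusted p = 0.431). The Hspg2 to Agrn ratio differed by 0.10 with a standard error of 0.18 (exact p = 0.587, adjusted p = 0.685). Of the 7 ratios, 3 passed, and these kept differences of 0.94 to 2.30 without any 1 sample. In those smaller designs their adjusted p was 0.0400 without oxaliplatin 4 and otherwise 0.0667 or 0.0833, where each exact p was the smallest that the design allows.

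**Figure D3:**
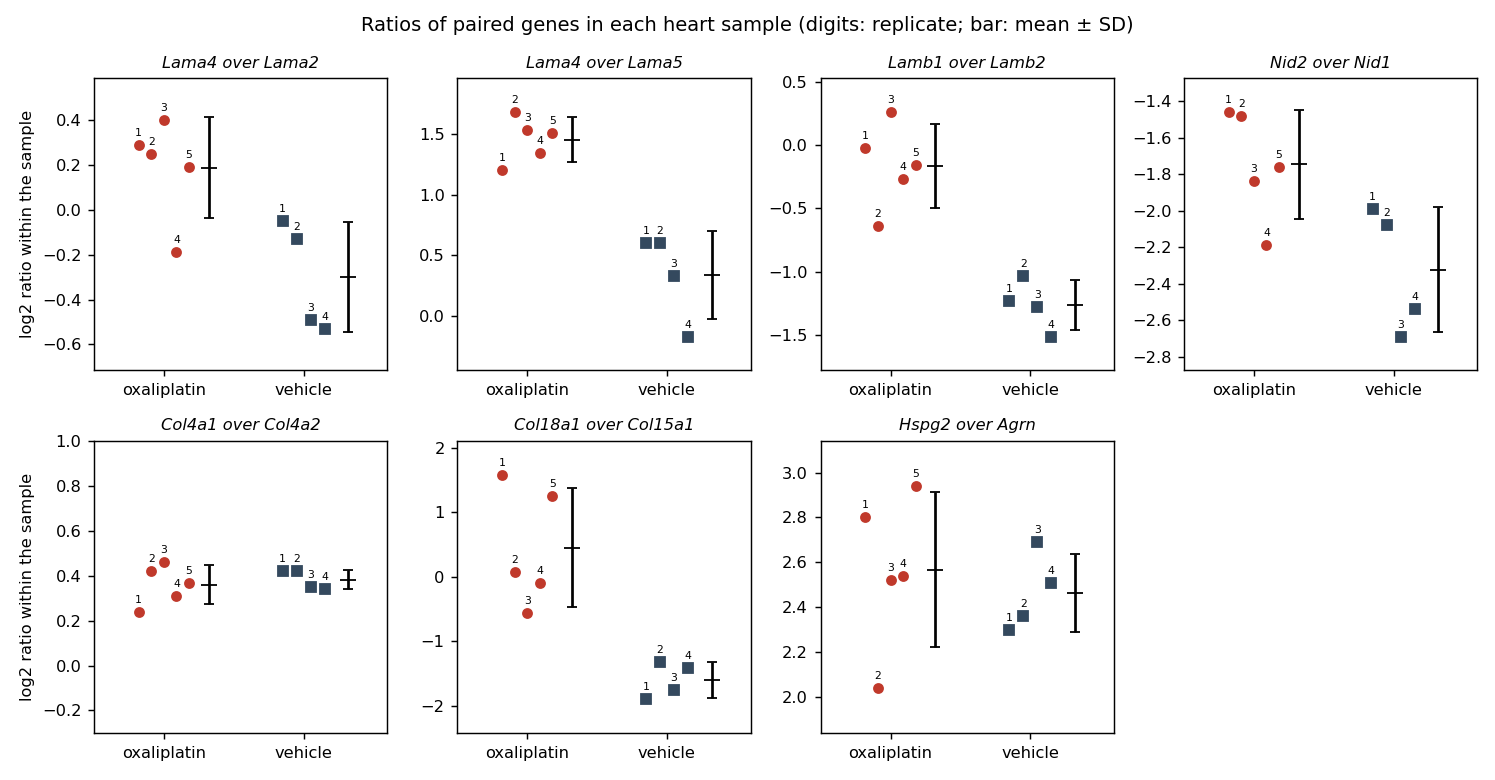
Log2 count ratios within each heart for the 7 pairs of related genes, with oxaliplatin hearts left of vehicle hearts and a bar at the group mean. Lama4 over Lama5, Lamb1 over Lamb2 and Col18a1 over Col15a1 have groups that do not overlap, while Col4a1 over Col4a2 stays between 0.24 and 0.46 in all hearts.

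Among hearts of the same group the members varied together. After each group's mean was subtracted, the 45 pairs of members had a median Pearson r of 0.62 over 9 samples, from 0.16 for Lama4 with Col4a2 to 0.99 for Col4a1 with Col4a2, and 0 pairs were negative. Nid1 followed Col4a1 with r = 0.94, and Hspg2 followed Nid1, Col4a1 and Col4a2 with r = 0.91 each. Such values share each heart's library, depth and tissue piece. No value for pairs of other genes is given beside them, so they do not set the members apart from other genes. Vehicle 4 was the highest vehicle heart for 10 of 10 members, which held for 35.6% of all genes tested. Its level over the median of the other 3 vehicle hearts was 1.54-fold in the median over members and 1.02-fold over all genes tested. By member this excess was lowest for Nid2 (1.12-fold), Lama4 and Lamb1 (1.14-fold each) and highest for Col18a1 (2.33-fold), Hspg2 (1.95-fold) and Agrn (1.88-fold). Among oxaliplatin hearts, oxaliplatin 2 was the lowest for 6 members and oxaliplatin 4 the highest for 5.

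The genes outside the 10 that followed them most closely within groups were Tlr13, an endosomal receptor for bacterial RNA in mice, Myh9, non-muscle myosin heavy chain IIA, Cygb, cytoglobin, Llgl1, a cell polarity protein, and Wasf2, a regulator of actin branching. Tlr13 had a mean r of 0.80 with the 10 members over the 9 samples, and the other 4 had 0.78. These were the highest mean values in a ranking of the genes tested, with predicted gene models left out. Tlr13 was low, with 46.8 ± 12.4 normalized counts in oxaliplatin hearts (SD, n = 5) and 27.1 ± 7.84 in vehicle hearts (SD, n = 4). The lowest r with a single member was 0.53 for Tlr13 with Col18a1, and the highest was 0.97 for Myh9 and for Wasf2 with Hspg2. None of the 5 passed between groups. Myh9 came nearest, with 1932 ± 329 normalized counts in oxaliplatin hearts (SD, n = 5) and 1357 ± 341 in vehicle hearts (SD, n = 4) and a log2 fold change of 0.52 (limma adjusted p = 0.0543).

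Of 25 other basement membrane genes 21 were measured, and of these 5 rose, 1 fell and 15 did not pass. Their median log2 fold change was 0.01, and the shares over all genes tested were 9.23% higher and 5.03% lower. With the fibroblast marker score as a covariate 2 were higher and 4 lower. Sparc, a collagen-binding glycoprotein, had 66635, 26218, 59328, 79909.5 and 77979.7 normalized counts in oxaliplatin 1 to 5, against 17033, 16299, 16871 and 18083 in vehicle 1 to 4. Every oxaliplatin heart was above every vehicle heart, with oxaliplatin 2 the lowest, and the log2 fold change was 1.76 with a standard error of 0.28 (limma adjusted p = 0.00266). Fbln2, fibulin-2, which binds nidogen and laminin, rose by 1.99 to 11972 ± 6095 in oxaliplatin hearts (SD, n = 5), against 2725 ± 447 in vehicle hearts (SD, n = 4) (limma adjusted p = 0.00734). Tinagl1, a secreted matricellular protein, rose by 1.04 (limma adjusted p = 0.0123), Lamb3, the beta chain of epithelial laminin-332, by 0.85 (0.0155) and Col4a3, collagen IV alpha3, by 0.92 (0.0321). The rise of Tinagl1 was lost with the erythroid score as a covariate (1.02, limma adjusted p = 0.0792), that of Lamb3 was lost without vehicle 4 (adjusted p = 0.0514), and that of Col4a3 without vehicle 2, vehicle 3, vehicle 4, oxaliplatin 3 or oxaliplatin 5 (0.0576 to 0.104). Lama5, given above, was the gene that fell.

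Collagen IV chains other than alpha1 and alpha2 are minor in most tissues. Of these, Col4a3 rose by 0.92, as given above. Col4a4 and Col4a5 had log2 fold changes of 0.31 (limma adjusted p = 0.511) and 0.01 (0.992). Col4a6 was at -0.16 with a wide standard error of 1.14 (limma adjusted p = 0.948). Col4a4, Col4a5 and Col4a6 were picked for mention after their values were seen. Col4a4 had 117, 263, 217, 399 and 188 normalized counts in oxaliplatin 1 to 5, against 184, 182, 142 and 206 in vehicle 1 to 4, so its groups overlapped.

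Genes that modify, fold and cross-link collagen leaned upward. Of 21 measured of 24 listed, 8 rose, 1 fell and 12 did not pass, with a median of 0.39. Over all genes tested, 9.23% rose and 5.03% fell. Ppib, cyclophilin B, a prolyl isomerase of the endoplasmic reticulum, had 3742, 3281, 3849, 4211 and 3626 normalized counts in oxaliplatin 1 to 5, against 2538, 2546, 2555 and 2409.5 in vehicle 1 to 4. The groups were clearly apart (log2 fold change 0.57 with a standard error of 0.10, limma adjusted p = 0.00351), and 825 of its 3305 exon bases are shared with Snx22 on the other strand, which averaged 66.8 normalized counts. Plod1, a lysyl hydroxylase of collagen, rose by 0.61 (limma adjusted p = 0.0105), and Tgm2, transglutaminase 2, a cross-linking enzyme, by 0.63 (0.0116). Lox, lysyl oxidase, rose by 2.36 to 162 ± 115 in oxaliplatin hearts (SD, n = 5), against 26.6 ± 13.7 in vehicle hearts (SD, n = 4) (limma adjusted p = 0.0158), a call lost without vehicle 2 (0.0579) or vehicle 3 (0.0616). Pxdn, peroxidasin, which forms the sulfilimine bond between collagen IV trimers and is named here after its values were seen, rose by 0.72 (limma adjusted p = 0.0181), lost without vehicle 2 (0.0659) or vehicle 3 (0.0600). The gene that fell was Mia2, a factor in export of large cargo such as collagen, by 0.56 (limma adjusted p = 0.0195; 0.0728 without vehicle 3).

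Heparan sulfate genes were mostly without a call. Of 19 measured of 24, 3 rose, 1 fell and 15 did not pass, with a median of 0.10. Beside these counts stand 9.23% higher and 5.03% lower over all genes tested. Hs3st1, a heparan sulfate 3-O-sulfotransferase, had 400.3, 245, 282, 402 and 389 normalized counts in oxaliplatin 1 to 5, against 89.6, 155, 127 and 99.8 in vehicle 1 to 4. All oxaliplatin hearts were above all vehicle hearts (log2 fold change 1.54 with a standard error of 0.21, limma adjusted p = 0.000883). Extl1, an exostosin-like glycosyltransferase, fell to 677 ± 65.7 in oxaliplatin hearts (SD, n = 5), against 1105 ± 55.7 in vehicle hearts (SD, n = 4) (log2 fold change -0.71, limma adjusted p = 0.00133). The endosulfatases Sulf2 and Sulf1, which trim sulfate from finished chains, rose by 0.53 (limma adjusted p = 0.0148) and 1.12 (0.0199). The Sulf2 call was lost without vehicle 3 (0.0529) and the Sulf1 call without vehicle 2 (0.0651) or vehicle 3 (0.0673).

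Among receptors for the basement membrane, 1 of 23 measured of 25 rose, 1 fell and 21 did not pass, with a median of 0.16. Neither count was above the shares over all genes tested, 9.23% higher and 5.03% lower. Sgce, epsilon-sarcoglycan of the dystroglycan-associated complex, rose by 0.78 to 894 ± 172 in oxaliplatin hearts (SD, n = 5), against 518 ± 80.9 in vehicle hearts (SD, n = 4) (limma adjusted p = 0.00647). Itga7, the laminin-binding integrin alpha chain of muscle, fell to 2134 ± 269.8 in oxaliplatin hearts (SD, n = 5), against 3077 ± 343 in vehicle hearts (SD, n = 4) (log2 fold change -0.53, limma adjusted p = 0.0125). Both held without any 1 sample.

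Of 15 proteases and inhibitors that act on matrix, all measured, 5 rose, 1 fell and 9 did not pass, with a median of 0.57. In all genes tested the shares were 9.23% higher and 5.03% lower. Timp3, a matrix-bound metalloprotease inhibitor, had 16977, 15228, 15664, 23113 and 15565 normalized counts in oxaliplatin 1 to 5, against 8370.4, 8877, 7681 and 10455 in vehicle 1 to 4. The groups were far apart (log2 fold change 0.96 with a standard error of 0.15, limma adjusted p = 0.00170), and 1733 of the 8144 exon bases of Timp3 are shared with Syn3 on the other strand, which is not among the genes of the table. Adamts4, a secreted proteoglycan-cleaving protease, was low, with 53.8, 13.2, 41.2, 74.8 and 74.4 normalized counts in oxaliplatin 1 to 5, against 15.5, 1.12, 3.23 and 8.07 in vehicle 1 to 4. Oxaliplatin 2 lay below vehicle 1 (log2 fold change 2.90 with a standard error of 0.67, limma adjusted p = 0.0129). With the strand setting not given, reads of any listed gene in a stretch that it shares with a gene on the other strand cannot be told apart. Timp1 rose by 1.77 (limma adjusted p = 0.0220) and Mmp2, a collagen IV-cleaving gelatinase, by 1.13 (0.0268). The Timp1 call was lost without vehicle 2 (0.0705) or vehicle 3 (0.0579), and the Mmp2 call without vehicle 1, vehicle 2, vehicle 3, oxaliplatin 3 or oxaliplatin 5 (0.0506 to 0.0788). Ctsl, the lysosomal protease cathepsin L, rose by 0.57 (limma adjusted p = 0.0469), a call kept without oxaliplatin 2 or oxaliplatin 3 and lost without any other single sample. Mmp15, a membrane-bound metalloprotease, fell by 0.50 (0.0293), lost without vehicle 1, vehicle 3, vehicle 4 or oxaliplatin 3 (0.0552 to 0.0873).

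**Figure D4:**
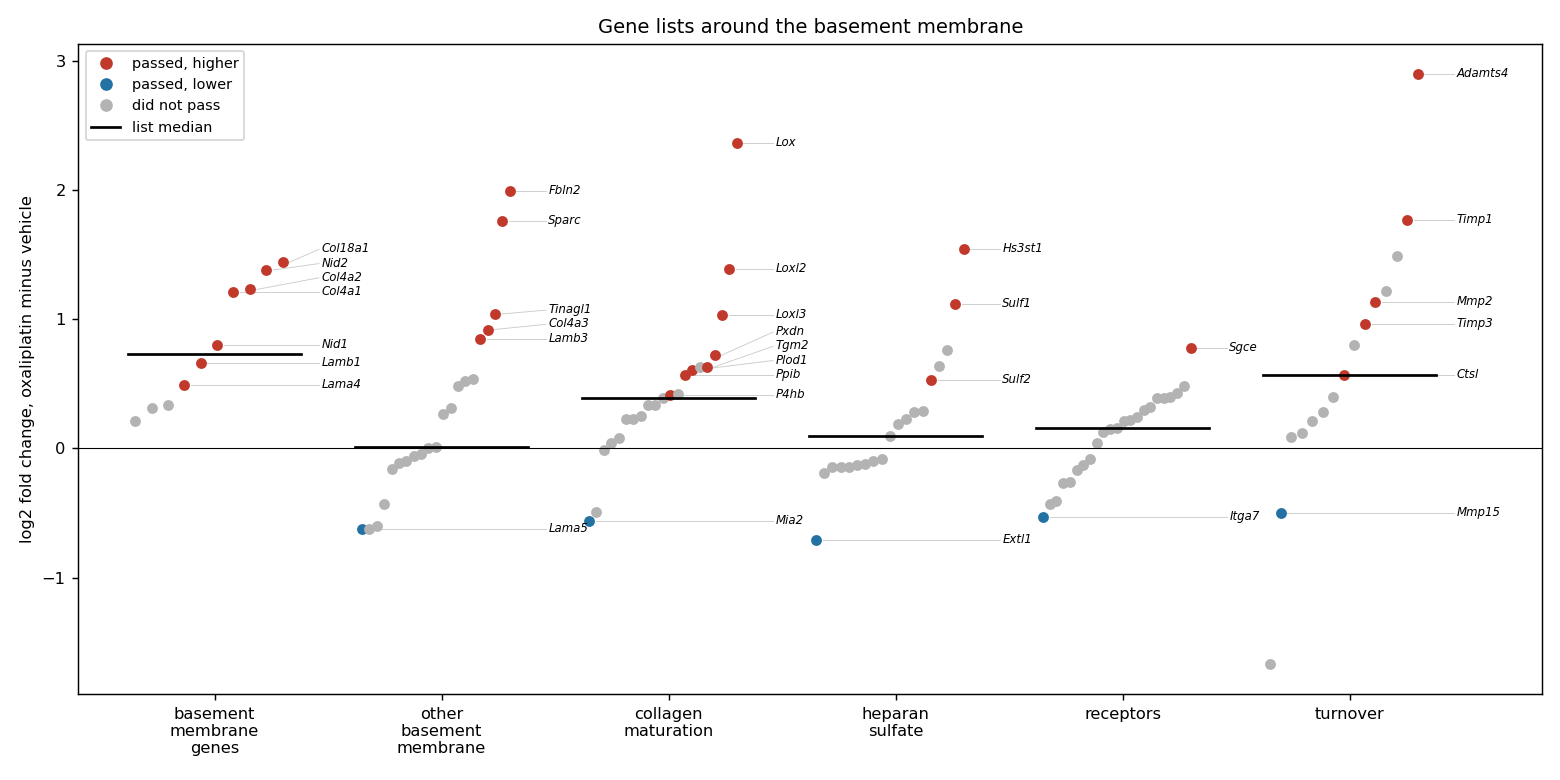
Log2 fold changes, oxaliplatin minus vehicle, of the 10 basement membrane genes and of 5 lists of related genes, each point a gene, coloured by its limma call, with a line at the list median. The medians are 0.73 for the 10 genes, 0.01 for other basement membrane genes, 0.39 for collagen maturation, 0.10 for heparan sulfate, 0.16 for receptors and 0.57 for turnover.

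Marker lists of the heart's cell types were read beside these genes. Of 10 endothelial markers 3 rose, 7 were higher at an unadjusted p under 0.05, and none was at 0 in any heart. Among all 13788 genes tested 9.23% rose, and 3970 differed in either direction at that unadjusted p. Their summed level was 23982 to 37466 normalized counts in oxaliplatin hearts (median 33822) and 18844 to 20078 in vehicle hearts (median 19551), without overlap. For 3 of the 10 markers every oxaliplatin heart lay above every vehicle heart, against 8.99% of all genes tested. For Cdh5 and Tie1, oxaliplatin 2 lay below every vehicle heart. Pecam1, CD31, had 6647, 4200, 5659, 6286 and 6785 normalized counts in oxaliplatin 1 to 5, against 2607, 2332, 2107 and 2239 in vehicle 1 to 4 (log2 fold change 1.33, limma adjusted p = 0.000461). Oxaliplatin 2, the lowest of its group for 6 members, was the lowest for Pecam1 too. The count of endothelial markers that rose was 5 without oxaliplatin 2. Among 4 measured markers of endothelial tip cells Angpt2, angiopoietin-2, rose by 1.52 (limma adjusted p = 0.000839) and Apln, apelin, by 0.95 (0.0257). That count was 3 without oxaliplatin 2 and 1 without oxaliplatin 3, oxaliplatin 4 or any 1 vehicle heart. Vehicle 4, high for all members, had the highest endothelial sum of the vehicle hearts, 20078, and was the highest vehicle heart for 5 of the 10 endothelial markers, among them Kdr and Flt1, but not for Pecam1.

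Of 8 pericyte markers 3 rose, with a summed level of 12265 to 23615 normalized counts in oxaliplatin hearts (median 19996) and 11996 to 15252 in vehicle hearts (median 13598). That count was 1 without vehicle 2, vehicle 3 or, with 1 more marker lower, oxaliplatin 3, 2 without vehicle 1, oxaliplatin 4 or oxaliplatin 5, and 5 without oxaliplatin 2. Of 10 fibroblast markers 1 rose, Postn, periostin, by 2.44 (limma adjusted p = 0.0124). Their sum overlapped, at 73897 to 167298 in oxaliplatin hearts (median 117052) and 75432 to 109671 in vehicle hearts (median 101719.6). Gsn, with group means of 67824 and 67581 and a log2 fold change of -0.05, was the largest part of it. The median log2 fold change was 0.43 over fibroblast markers, with 9 positive and 1 negative. It was 0.43 over endothelial, 0.55 over pericyte and 0.60 over smooth muscle markers, and -0.02 over all genes tested. Of all genes tested, 9.23% rose and 5.03% fell. Without oxaliplatin 1, 3 fibroblast markers rose. Epicardial markers, of which 4 of 8 rose, had a summed level of 2637 to 5330 in oxaliplatin hearts (median 4557) and 211 to 1004 in vehicle hearts (median 357). The count of epicardial markers was 8 without vehicle 1, 6 without oxaliplatin 1 and 3 or 4 without any other single heart, and Krt8 was at 0 in at least 1 heart. Krt19 had 1733, 523, 1135, 1651 and 2486 normalized counts in oxaliplatin 1 to 5, against 64.5, 37.98, 18.3 and 17.1 in vehicle 1 to 4. Of 8 macrophage markers 1 rose, Cd68, by 1.21 (limma adjusted p = 0.0123), and 3 rose without oxaliplatin 1, while without oxaliplatin 3 1 rose and 1 fell. Of 11 cardiomyocyte markers 4 fell, by 0.54 to 0.70. That count was 1 without vehicle 3, 2 without vehicle 1, vehicle 2 or oxaliplatin 2, 3 or 4, and 3 without oxaliplatin 5. It was 1 after quantile normalization and 0 with the erythroid score as a covariate.

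With all 9 hearts no smooth muscle, atrial, erythroid, Schwann or adipocyte marker passed in limma, but without oxaliplatin 3, 5 of the 7 erythroid markers passed as lower. At an unadjusted p under 0.05, 2 of 5 smooth muscle markers were higher and 5 of 7 erythroid markers were lower. At that threshold 0 of 7 atrial, 0 of 4 Schwann and 0 of 3 adipocyte markers differed. The same threshold held 3970 of all 13788 genes tested, in either direction. Summed atrial markers ranged widely, between 27903 and 851634 normalized counts in oxaliplatin hearts (median 122299) and between 13375 and 391898 in vehicle hearts (median 35018), and Bmp10 was at 0 in at least 1 heart. Summed erythroid markers were 7811 to 357699.5 in oxaliplatin hearts (median 37042) and 221027 to 569861 in vehicle hearts (median 409210).

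**Figure D5:**
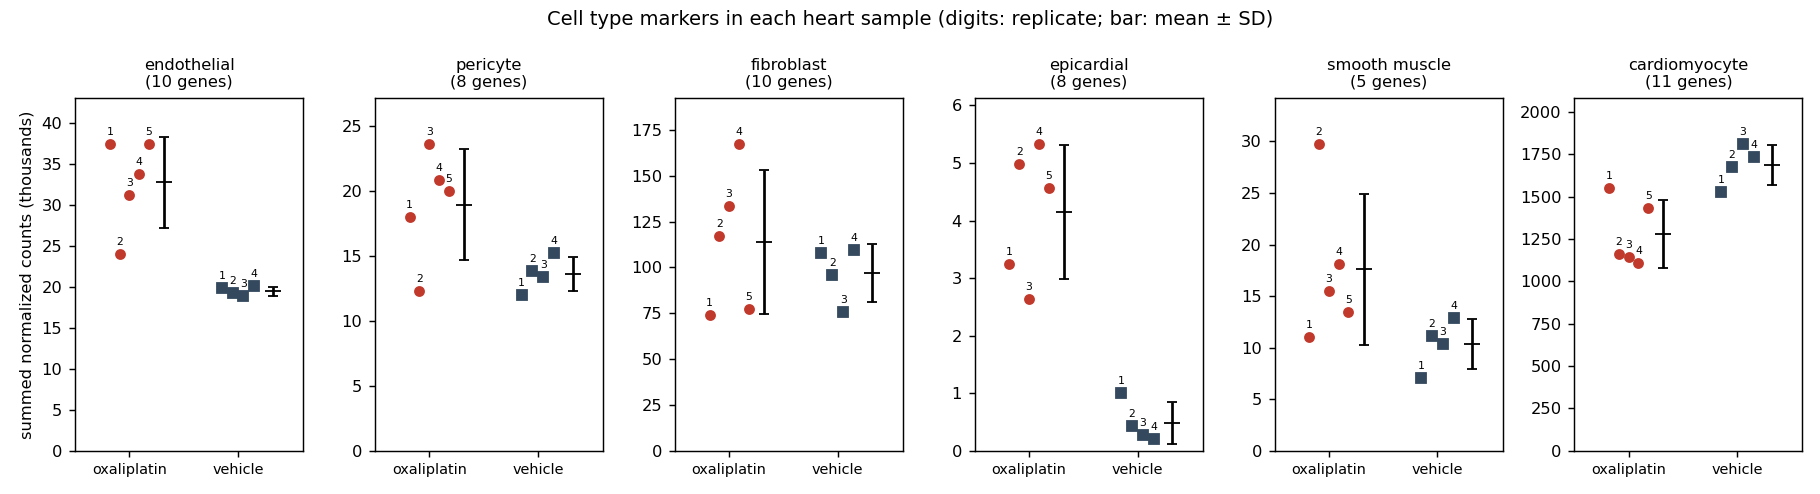
Summed normalized counts of the endothelial, epicardial, pericyte, fibroblast, smooth muscle and cardiomyocyte marker lists in each heart. Oxaliplatin hearts are left of vehicle hearts. Endothelial and epicardial sums do not overlap between the groups, whereas pericyte, fibroblast, smooth muscle and cardiomyocyte sums do.

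With a marker score as a covariate the calls of the members changed as follows. With the fibroblast score, Nid2 alone passed, at a log2 fold change of 1.27 (limma adjusted p = 0.00698), and the median over members was 0.51. The endothelial score left 0 of 10 members and 0 of 13788 genes past the threshold (1 and 1040 at an unadjusted p under 0.05), with Col18a1 at 1.18 and Nid2 at 0.82 but Col4a1 at -0.35 and Col4a2 at -0.46. That score is higher in each oxaliplatin heart than in any vehicle heart, so the fit can hardly separate it from the treatment. With the erythroid score 6 members passed, all but Col18a1 of the 7 (limma adjusted p = 0.0853), and with the atrial score the 7 passed. Without the 4 hearts of high atrial score, vehicle 1 and oxaliplatin 2, 3 and 4, 4 members passed (Nid2, Lamb1, Col4a1 and Col4a2). Whether more endothelium, other cells or more RNA per cell lies behind the members' levels was not tested.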

How the data were processed

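RNA was sequenced from 9 mouse hearts, with libraries made by a SMARTer kit per the labels. The deposited signal is, per the file headers, a normalized count per gene and sample. The submitters' processing notes name STAR 2.5.1a, Partek and DESeq2 without role or order, and the series' description has Partek as the tool behind the authors' comparison. The build, gene models and strandedness of counting are not given in the sources used. Median-of-ratios factors of the deposited values were all 1.0031, as after division by such factors. The lowest maximum of any gene was 40.6, so low genes are lacking. Divided by the step between low values, only 73.1% to 75.9% of the values from 1 to 1000 reads came within 0.02 of a whole number, so whole reads were not recovered and no count test was run.

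Groups came from the titles. limma 3.58.1 (R 4.3.3), moderated with its trend and robust options, was fitted on log2(normalized count + 1) for the 13788 genes with a mean of at least 10, two-sided, with Benjamini-Hochberg adjustment over all of them and an adjusted p under 0.05 as the threshold. Fold changes on this scale understate the change of low genes. Ratios within a heart were tested with exact permutations in scipy 1.17.1. The limma step was tested on simulated data, where it recovered 25.5% of 1.5-fold, 64% of 2-fold, 94% of 4-fold and 99.5% of 8-fold changes. Small changes were thus mostly missed there, and 26 of 592 calls were false. Each of the 4 simulated tables held 200 changed genes, with noise drawn separately for each gene. In the hearts 1966 genes were called and the members varied together, so these recovery rates need not hold for them.

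The members, the 5 related lists and the 12 cell type lists were chosen with earlier results of these data known. Of each related list the text names up to 4 passing genes of smallest p, and any others named were picked after their values were seen. Levels per kilobase use the principal transcript of GENCODE M21, whose gene coordinates were matched by symbol. Sequences are those of RefSeq, GRCm38.p6. The alternatives were pseudocount, filter, scaling, limma settings, array weights, marker scores as covariates, the replicate number as a block, removal of hearts with an atrial score more than 1 above the mean, and leaving out each sample.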

Additional observations from a re-analysis of the deposited data

Results flagged for a closer look

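Single hearts stood apart in 8 of 88 groups of values examined with Dixon's 95% test for an outlier, where chance flags about 1 in 20 groups. Among the basement membrane genes this was Hspg2, with 4105 normalized counts in vehicle 4, against 1973, 2105 and 2174 in the other vehicle hearts. Vehicle 4 also stood apart among vehicle hearts for Lama5 (1254 normalized counts, against 643 to 714 in the others) and Lama2 (1606, against 1063 to 1140.1), and was the low one for Ppib (2409.5, against 2538 to 2555). Vehicle 3 stood apart for Fbln2 (2059, against 2879 to 3002) and for Mia2 (1448, against 1218 to 1232). Among oxaliplatin hearts, oxaliplatin 4 stood apart for Timp3 (23113, against 15228 to 16977) and oxaliplatin 1 for Mmp15 (444.5, against 559.7 to 600.6).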

How the results depend on the processing

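Of the 10 basement membrane genes, 7 passed in limma, and the median log2 fold change was 0.73. The 7 passed with a pseudocount of 10, without a filter, with a mean of at least 100, with the atrial score as covariate and after quantile normalization. Scaled to the sum outside mitochondrially encoded genes 6 passed, and without trend and robust moderation 5 did. Array weights per sample gave 9 members, adding Lamc1 (limma adjusted p = 0.0234) and Hspg2 (0.0451), and 3541 genes in all, against 1966. With these weights 11 receptor genes passed, against 2. Receptor genes passing were 1 with the mitochondrial scaling and 4 with the atrial score.

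With the erythroid score 1120 genes, 2 other basement membrane genes and 5 collagen maturation genes passed. With the fibroblast score 1101 genes, 1 member, 2 collagen maturation, 2 heparan sulfate, 1 receptor and 2 turnover genes passed, with Lamc1 at -0.13 and Agrn at -0.17. Without the hearts of high atrial score 4 members, 2 heparan sulfate and 4 receptor genes passed, with Lamc1 at -0.13. With the endothelial score 0 genes, 0 members and 0 genes of any of the 5 lists passed limma (1040 genes and 1 member at an unadjusted p under 0.05), and the member median was -0.06. There Nid1 was at -0.11, Lamb1 at -0.01, Col4a1 at -0.35, Col4a2 at -0.46, Hspg2 at -0.95, Agrn at -0.17, Sparc at -0.13, Fbln2 at -0.06, Tinagl1 at -0.20, Plod1 at -0.08, Tgm2 at -0.05, Lox at -0.81, Adamts4 at -0.84, Pxdn at -0.06, Ctsl at -0.18, Mia2 at 0.24 and Col15a1 at 0.19. Lama2, at -0.00 in limma, was 0.09 with the mitochondrial scaling, 0.18 with array weights and 0.08 with the erythroid score. The cause of these moves was not tested. Of the other genes named, calls were lost for Adamts4 after quantile normalization, for Itga7, Lama5, Mia2 and Mmp15 with the mitochondrial scaling, for Lama5, Col4a3, Ctsl and Mmp15 without trend and robust moderation, and for Lama5 with array weights. The erythroid score ended those of Tinagl1, Lamb3, Tgm2, Sulf1, Itga7, Lama5, Col4a3, Mia2, Ctsl and Mmp15. The fibroblast score ended those of Fbln2, Lamb3, Tgm2, Lox, Sulf1, Sulf2, Sgce, Adamts4, Timp1, Mmp2, Col4a3, Pxdn, Mia2 and Ctsl, while Lamb2 (-0.63) and Col15a1 (-1.56) passed with it. Without the hearts of high atrial score Sulf1, Sulf2, Mmp2, Lama5, Col4a3, Pxdn and Mmp15 did not pass.

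Leaving out 1 sample at a time gave 1110 to 2378 genes, 3 to 7 members, 4 to 6 other basement membrane, 3 to 10 collagen maturation, 2 to 4 heparan sulfate, 2 to 5 receptor and 2 to 7 turnover genes, a member median of 0.65 to 0.85, and Lama2 at -0.10 to 0.13. The log2 ratios were 0.94 to 1.19 for Lama4 over Lama5, 0.99 to 1.22 for Lamb1 over Lamb2, 1.76 to 2.30 for Col18a1 over Col15a1, 0.41 to 0.58 for Lama4 over Lama2, 0.46 to 0.69 for Nid2 over Nid1 and -0.05 to 0.01 for Col4a1 over Col4a2. The top values of the Lama4 over Lama2 and Nid2 over Nid1 ratios, without oxaliplatin 4, passed.

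Replicate numbers are shared by 4 pairs. Deviations of same-numbered hearts had r = -0.273, -0.064, -0.093 and 0.250, against -0.45 to 0.422 between hearts of different number. With so wide a range these values cannot show whether hearts were paired, and the labels do not say. With the number as a block 6 members passed, without Lama4 (limma adjusted p = 0.0894), among 1405 genes, and Lama2 was at 0.00. Tinagl1 (0.0635), Sulf1 (0.0698), Col4a3 (0.0584) and Ctsl (0.0571) also lost their calls there, Lamb2 passed (log2 fold change -0.48, 0.0497), and 2 epicardial, 1 pericyte and 0 fibroblast markers passed. In the paired ratios, with 4 pairs and a smallest exact sign-flip p of 0.125, Lama4 over Lama5 was 1.09, Lamb1 over Lamb2 1.10 and Col18a1 over Col15a1 1.85 (adjusted p = 0.175 each).

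Among the members, depth limits Col18a1 most. A member that did not pass is not shown to be the same in both groups.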
